A study of Mus musculus with 12 samples.

Results

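The replication-dependent histone genes of the mouse were described across 12 RNA-seq libraries of embryos and embryonic stem (ES) cells. They were found by symbol, as every gene whose name begins with Hist1h, Hist2h, Hist3h or Hist4h, and kept when listed at 1 FPKM or more in at least 2 libraries. FPKM scales the reads of a transcript by its length and by the size of the library. Of 22619 gene symbols 68 carried such a name and 67 were kept: 6 H1, 18 H2A, 18 H2B, 12 H3 and 13 H4 genes. Hist1h2bq was left out, as it was listed at 0 in every library. Nearest inside the threshold were Hist1h2br, at 1 FPKM or more in 2 libraries, and Hist1h2be, in 3. By the files' mm9 coordinates 53 of the 67 lie on chromosome 13, 10 on chromosome 3, 3 on chromosome 11 and 1, Hist4h4, on chromosome 6.

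Replication-dependent histone genes supply the H2A, H2B, H3 and H4 proteins that form the nucleosome core and the H1 linker histone that binds DNA between nucleosomes, in step with DNA synthesis in S phase. Most of these genes have no introns. Most of their mRNAs end in a short stem-loop bound by the protein Slbp in place of a poly(A) tail. In oocytes and early embryos histone mRNA is stored and translated under Slbp, and in many cell types some histone genes also make polyadenylated transcripts from a signal further downstream. Of the members, Hist1h1t encodes a linker histone known from testis, Hist1h2aa and Hist1h2ba encode the H2A and H2B forms known from testis and oocyte, and Hist3h2bb-ps is annotated as a pseudogene.

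The embryos were C57BL/6 and fell into Dcaf11 knockout embryos whose titles carry the word Arrest (KO arrest, n = 3), Dcaf11 knockout embryos (KO embryo, n = 3) and wild-type embryos (control embryo, n = 2). The ES cells were 129Sv, with Dcaf11 knocked down (KD ESC, n = 2) or wild type (control ESC, n = 2). Dcaf11 is known as a receptor that brings substrates to a CUL4-DDB1 ubiquitin ligase. The stage, the sex, the number of cells per library and the means of the knock-down are not stated in the labels, nor is it stated whether libraries of a group came from separate embryos or cultures. The p-values therefore rest on the spread among these libraries alone, some or all of which may be technical. All libraries were made by Smart-seq2, which primes cDNA on the poly(A) tail, and the labels of every sample state that polyadenylated RNA was captured.

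Relative depth, the coverage of a gene at 1 FPKM, spanned 0.373 to 2.01, and the number of reads is not known. Between 8535 and 12061 genes reached 1 FPKM in 11 libraries, and 6573 did in control embryo 1, which stands apart from the rest. Dcaf11 itself was listed at 4.43, 0.422 and 6.02 FPKM in KO arrest, at 3.99, 2.84 and 0.184 FPKM in KO embryo and at 2.82 and 14.3 FPKM in control embryo. It was listed at 1.69 and 1.83 FPKM in KD ESC and at 6.48 and 4.52 FPKM in control ESC. The embryo groups overlapped, and both KD ESC libraries lay below both control ESC libraries (adjusted p = 0.0521 by limma). The labels do not say which part of the gene was removed in the embryos, so a value over the whole transcript does not check the knock-out. The 7 pluripotency markers summed to 1974 to 2412 FPKM in the ES libraries and 20.8 to 152 FPKM in the embryo libraries. Among them Esrrb was listed at 28.6 FPKM in KD ESC 1 and at 244 to 255 FPKM in the other ES libraries. The oocyte gene Gdf9 was found in all 8 embryo libraries, at 6.92 to 156 FPKM.

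The stem-loop was looked for in the members' transcripts, because it decides which end a histone mRNA receives. In the GENCODE M21 transcripts (GRCm38) the motif of the histone stem-loop, with a pairing stem that could hold either pyrimidine or purine inside its flanking GG and CC, was found after the stop codon in 44 of the 67 genes. The loop began 21 to 58 bases after the stop codon, with a median of 31. Of the 23 genes without it, 16 are annotated with fewer than 30 bases after the stop codon, so that the annotated transcript ends before the place where it lies in the others. The 6 forms found are shown here as DNA, with the stem in capitals and the 4-base loop in lower case, each from 1 gene that carries it.
Hist1h2ae: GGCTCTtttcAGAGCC
Hist1h3e: GGCTCTtttaAGAGCC
Hist2h2ac: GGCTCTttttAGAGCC
Hist1h4d: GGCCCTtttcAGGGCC
Hist1h4i: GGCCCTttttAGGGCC
Hist1h4b: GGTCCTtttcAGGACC
The first form was the form of 26 genes and the second of 6, all of them H1, H2A, H2B or H3 genes, and the third was found in Hist2h2ac alone. The H4 genes with a loop carried the last 3 forms, in 7, 2 and 2 genes, and no other class carried these. The annotated transcript ended within 100 bases of the loop in 22 genes and went on for more than 100 bases in the other 22. A polyadenylation signal (AATAAA or ATTAAA) followed the loop in 16 genes, among them Hist1h4d, Hist1h2ae, Hist1h1c and Hist4h4.

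The genes are arranged in clusters, and 12 pairs of an H2A and an H2B locus lie head to head, with start sites 168 to 335 bases apart in mm9. The overlapping rows Hist1h2ao and Hist1h2ap, both facing Hist1h2br, were counted as 1 locus. The promoters, taken as 250 bases before to 50 after the start, were matched in RefSeq (GRCm38.p6) for 61 of the 67 genes, with 62 promoters. On either strand the TATAAA box was found in 56.5% of them, against 13.6% of 32851 mouse promoters, and CCAAT in 85.5% against 37.4%. CCAAT was present in every matched H1, H2A, H2B and H3 promoter but in 3 of 12 H4 promoters. The octamer ATTTGCAT, known as the site of the factor Oct1 (Pou2f1) in H2B promoters, was found in 7 of 18 H2A and 7 of 16 H2B promoters, in no other class, and in 1.74% of all promoters. Promoters are shown for 2 genes that were higher in KO arrest than in both other embryo groups, and motifs on either strand are in capitals. The second spans the interval between Hist1h2ae and its partner Hist1h2bg and reaches into both genes. They are those of Hist1h4d at chr13:23581318-23581617, plus strand, and of Hist1h2ae at chr13:23571171-23571470, minus strand, each written 5′ to 3′ along its own gene.
Hist1h4d: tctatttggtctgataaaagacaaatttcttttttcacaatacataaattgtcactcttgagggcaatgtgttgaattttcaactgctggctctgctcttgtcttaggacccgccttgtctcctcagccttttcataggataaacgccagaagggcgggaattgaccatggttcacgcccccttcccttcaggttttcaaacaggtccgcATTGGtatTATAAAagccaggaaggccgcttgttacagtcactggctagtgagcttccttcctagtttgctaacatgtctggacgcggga
Hist1h2ae: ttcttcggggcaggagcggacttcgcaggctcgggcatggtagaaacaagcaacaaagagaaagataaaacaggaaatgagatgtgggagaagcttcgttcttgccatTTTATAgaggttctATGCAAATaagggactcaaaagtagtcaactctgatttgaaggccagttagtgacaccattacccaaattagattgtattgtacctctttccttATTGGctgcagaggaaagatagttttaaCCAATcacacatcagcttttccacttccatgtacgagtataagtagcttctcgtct
The Hist1h4d stretch holds 1 CCAAT (as ATTGG) and 1 TATAAA but no octamer. The Hist1h2ae stretch holds 1 TATAAA (as TTTATA) and 1 octamer (as ATGCAAAT), both read toward Hist1h2bg, and 2 CCAAT.

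Many of these genes are near copies, which bears on each value below. Of the 50-base windows of a coding sequence, the share also found in another gene had a median of 10.9% in H1, 87.9% in H2A, 72.2% in H2B, 84.7% in H3 and 70.3% in H4. It exceeded 90% in 19 of the 67 genes. It was 100% for Hist1h2ap, 81.4% for Hist1h2ae, 42.2% for Hist1h4d and 0% for Hist4h4. No source used here says how the authors' counting split such reads. In the files the span of Hist1h2ao, chr13:21902236-21902749, encloses that of Hist1h2ap, chr13:21902336-21902728, on the same strand, so these 2 rows cannot be read as separate genes. The same holds for Hist2h2aa1 with Hist2h2aa2 and for Hist1h4m with Hist1h4n. Hist1h1e, an H1 gene, and Hist1h2be, an H2B gene, overlap by 497 bases on the same strand, and neither encloses the other. Hist1h2br, for which the share was also 100%, was listed at 0 and 114 FPKM in KD ESC and at 130 and 0 FPKM in control ESC. Hist1h2bq, at the same coordinates, was at 0 in every library. The cause of this pattern was not tested. Read strand is not stated.

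The ES libraries held far more histone mRNA than any embryo library. Summed over the 67 genes, FPKM reached 32074 and 35313 in KD ESC and 41827 and 41265 in control ESC. In embryos the sum was 2005, 2474 and 2931 FPKM in KO arrest, 1302, 731 and 1011 FPKM in KO embryo, and 242 and 1399 FPKM in control embryo. As a share of all FPKM of a library, this was 9.20% and 9.80% in KD ESC and 11.5% and 11.3% in control ESC. It was 0.417% to 0.526% in KO arrest, 0.204% to 0.332% in KO embryo, and 0.0714% and 0.356% in control embryo. Within embryos the KO arrest sums lay above all others, and the control embryo libraries enclosed the KO embryo libraries. In bulk libraries fewer cells of a type and less RNA per cell cannot be told apart.

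**Figure D1:**
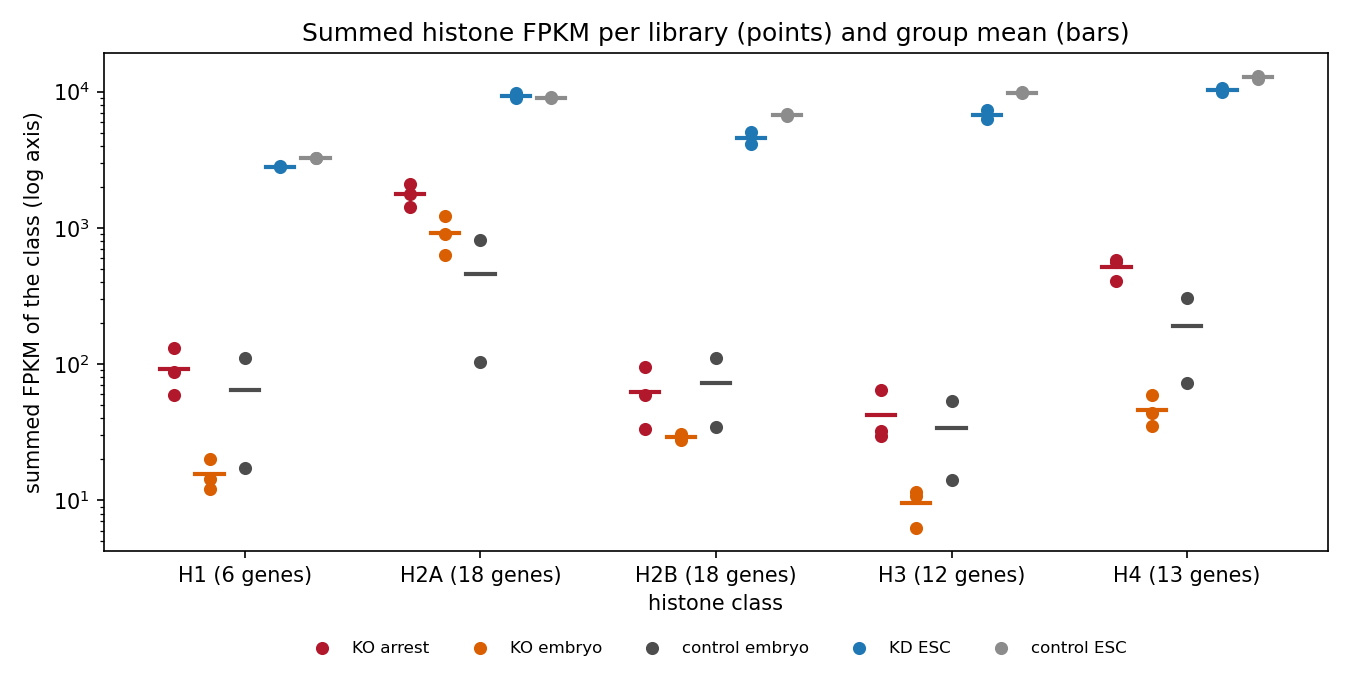
Summed FPKM of the members of each histone class in each library (points, log axis) with the mean of the group (bars), for KO arrest, KO embryo, control embryo, KD ESC and control ESC. In every class the 4 ES libraries sit above the 8 embryo libraries, and H2A is the highest class in every embryo library.

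The mix of classes differed too. H2A made up 70.6% to 71.6% of histone FPKM in KO arrest, 86.2% to 93.1% in KO embryo, and 42.8% and 58.4% in control embryo. In ES cells it made up 28.02% and 27.39% in KD ESC and 21.3% and 22.0% in control ESC. H4 was the leading class there, at 30.8% and 29.8% in KD ESC and 31.3% and 30.1% in control ESC. H3 took 19.6% and 20.6% in KD ESC and 23.3% and 24.0% in control ESC, but in the embryo libraries it took between 0.850%, in KO embryo 2, and 5.84%, in control embryo 1.

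A single H2A row carried most of this in embryos. Hist1h2ap was the highest member of all 8 embryo libraries, with 51.0% to 51.5% of histone FPKM in KO arrest, 60.9% to 64.4% in KO embryo, and 31.6% and 33.5% in control embryo. In ES cells it had 2.51% and 2.69% in KD ESC and 1.41% and 1.42% in control ESC. The leading members of the ES libraries were the H4 genes Hist1h4a, at 2943 and 2788 FPKM in KD ESC and 2578 and 2355 FPKM in control ESC, and Hist1h4d, at 1838 and 2335 FPKM in KD ESC and 2957 and 2967 FPKM in control ESC. Hist1h4a was listed between 0.656 and 8.70 FPKM in the 8 embryo libraries. Without Hist1h2ap the embryo sums were 982, 1213 and 1422 FPKM in KO arrest, 463, 285 and 385 FPKM in KO embryo, and 165 and 930 FPKM in control embryo (a sum added after seeing the data). The KO arrest libraries then still lay above the rest, while the KO embryo libraries still lay between the control embryo libraries.

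**Figure D2:**
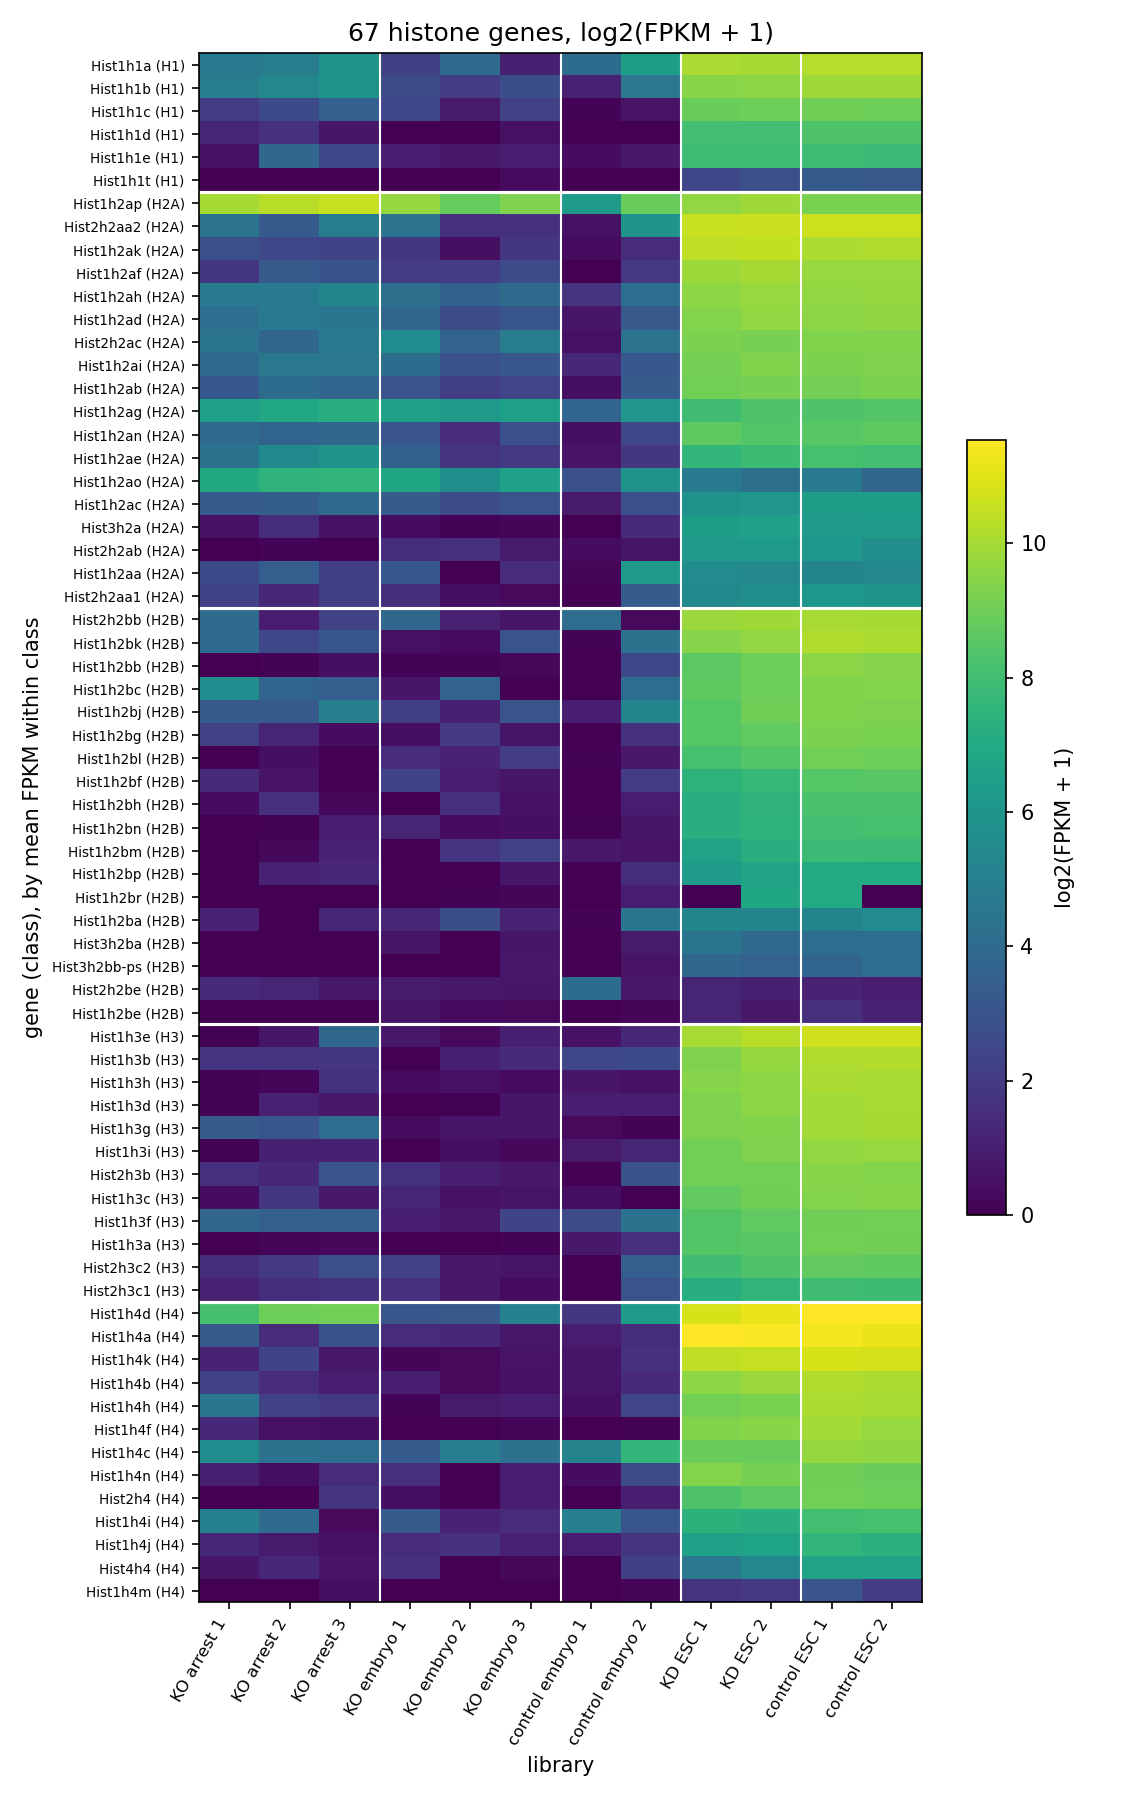
Level of each of the 67 histone genes as log2(FPKM + 1) in each library, with genes grouped by class and ordered by mean FPKM. The ES columns are high for nearly all genes, and the embryo columns are low except for a few, chiefly Hist1h2ap, Hist1h2ao, Hist1h2ag and, in KO arrest, Hist1h4d.

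The contrast of control embryo with control ESC covered nearly the whole family. By limma on log2(FPKM + 1), fitted over 14447 genes of 12 libraries with Benjamini-Hochberg adjustment, 62 of 67 members were lower in control embryo and 0 higher, against 40.8% of all genes lower and 12.6% higher. The median log2 fold change of the members was -7.27, against -1.01 over all genes. Only 54 of the 67 members reached 1 FPKM in at least 2 of the 8 embryo libraries. The other members were kept through the ES libraries, so the filter itself favoured a lower level in embryos for them. By class 6 of 6 H1, 15 of 18 H2A, 16 of 18 H2B, 12 of 12 H3 and 13 of 13 H4 genes were lower. The largest difference was that of Hist1h4a, with 0.839 and 1.83 FPKM in control embryo and 2578 and 2355 FPKM in control ESC (log2 fold change -10.08 ± 0.55, SE, adjusted p = 2.78e-06). Hist1h3h, an H3 gene, had 0.645 and 0.486 FPKM in control embryo and 1072 and 1045 FPKM in control ESC (-9.40 ± 0.51, SE, adjusted p = 2.74e-06). Hist1h1c, which encodes a somatic linker histone, had 0.0955 and 0.514 FPKM in control embryo and 518 and 514 FPKM in control ESC (-8.65 ± 0.60, SE, adjusted p = 6.08e-06).

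The 5 members that did not pass were Hist1h2aa, Hist1h2ao, Hist1h2ap, Hist1h2br and Hist2h2be. Hist1h2ap had 76.6 and 469 FPKM in control embryo and 588 and 588 FPKM in control ESC, an adjusted p of 0.0586. The row that encloses it, Hist1h2ao, had 6.31 and 60.1 FPKM in control embryo and 25.5 and 12.9 FPKM in control ESC, and the groups overlapped. Hist1h2aa, the testis and oocyte H2A, had 0.130 and 71.9 FPKM in control embryo and 36.2 and 40.7 FPKM in control ESC. Its head-to-head partner Hist1h2ba had 0.0790 and 21.05 FPKM in control embryo and 36.3 and 45.8 FPKM in control ESC. Hist2h2be was the member with the largest positive fold change, 1.39, from 15.9 FPKM in control embryo 1 and 0.711 FPKM in control embryo 2, against 1.22 and 0.881 FPKM in control ESC.

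The separation also held library by library. In 62 of the 67 members all 4 ES libraries lay above all 8 embryo libraries, as they did in 31.8% of the 14447 genes tested. Members kept only through the ES libraries count among the 62. In the ES libraries 49 members reached 100 FPKM in all 4. In the embryo libraries 5 members reached 100 FPKM in any, namely Hist1h2ap, Hist1h2ao, Hist1h2ag, Hist1h4c and Hist1h4d. The median gene of a class, by its median over the ES libraries, stood at 663 FPKM in H3 and 637 FPKM in H4, then at 478 in H2A, 402 in H1 and 230 in H2B. Over the embryo libraries the same values were 7.86 FPKM in H2A, 2.09 in H1, 0.973 in H4, 0.671 in H3 and 0.583 in H2B.

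RNAs known to lack a poly(A) tail moved with this contrast. Rmrp, the RNA of RNase MRP, had 1.39, 0 and 0 FPKM in KO arrest, 18.8, 16.0 and 35.7 FPKM in KO embryo, and 4.19 and 12.5 FPKM in control embryo. In ES cells it was the highest gene of each library, with 29756 and 32506 FPKM in KD ESC and 24780 and 25032 FPKM in control ESC. Rpph1, the RNA of RNase P, had 28.8, 80.4 and 62.6 FPKM in KO arrest, 14.7, 21.8 and 18.4 FPKM in KO embryo, and 0.509 and 17.1 FPKM in control embryo. In ES cells it had 14674 and 18556 FPKM in KD ESC and 22770 and 23742 FPKM in control ESC. Summed with Terc, Scarna2 and the Rprl genes, these RNAs came to 5.33 to 82.0 FPKM in embryo libraries and 44661 to 51435 FPKM in ES libraries. These 7 RNAs were chosen after their values were seen. Cell type, strain and the content of RNA without a poly(A) tail change together between the embryo and ES libraries and cannot be told apart, although the labels give 1 protocol for all.

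**Figure D3:**
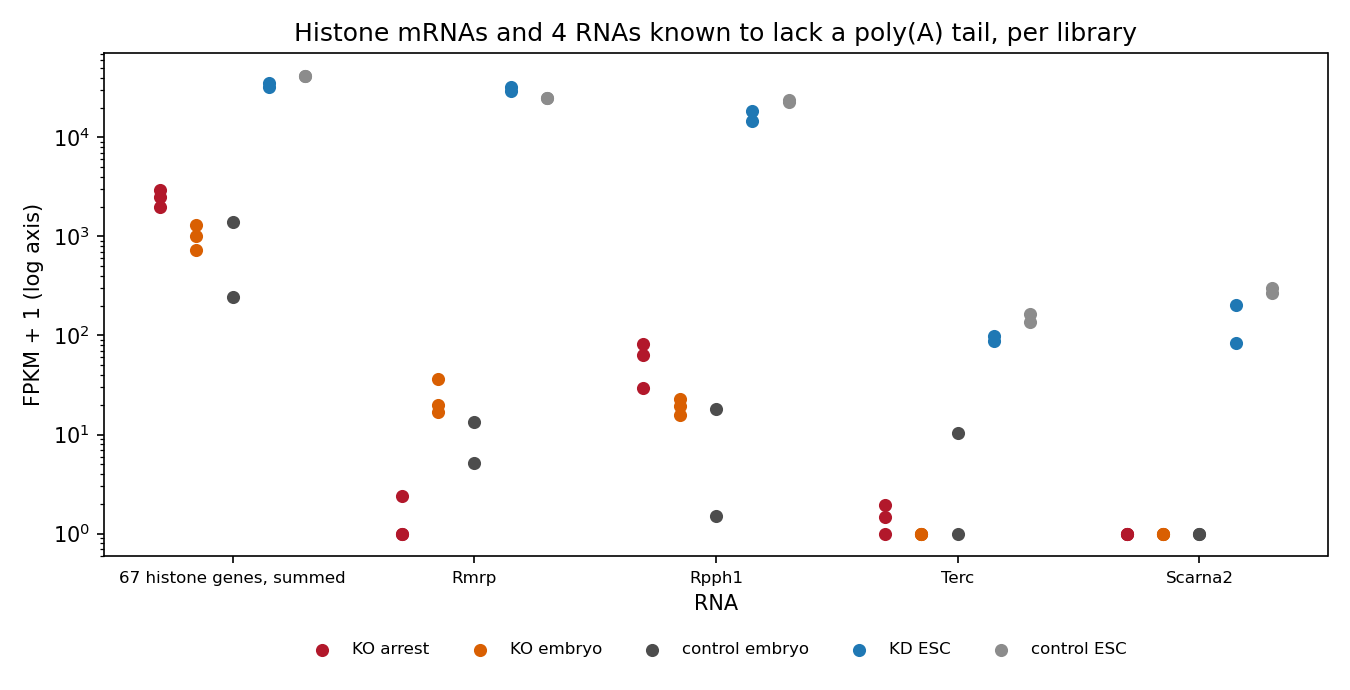
FPKM + 1 (log axis) of the 67 histone genes summed and of Rmrp, Rpph1, Terc and Scarna2, RNAs known to lack a poly(A) tail, in each library by group. All 5 quantities are higher in the 4 ES libraries than in the 8 embryo libraries.

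The other genes of the pathway did not share the scale of that difference. Slbp, which binds the stem-loop, had 240, 319 and 298 FPKM in KO arrest, 481, 237 and 237 FPKM in KO embryo, and 175 and 598 FPKM in control embryo. In ES cells it had 41.9 and 36.8 FPKM in KD ESC and 31.2 and 30.8 FPKM in control ESC, below each embryo library. Of 24 genes for histone mRNA 3′ processing and transcription, 3 were higher and 11 lower in control embryo than in control ESC. Of all genes 12.6% were higher and 40.8% lower, near the shares in this list. Of 25 S phase genes 1 was higher and 18 lower, with summed FPKM of 476 and 491 in control embryo and 1139 and 1169 in control ESC. Of 12 replication-independent histone genes 4 were higher, among them H1foo, the oocyte linker histone, and 3 lower, among them H2afx.

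KO arrest embryos held more H2A mRNA than control embryos, together with Hist1h4d. Of 54 members kept by the filter over the 8 embryo libraries, 10 (18.5%) were higher in KO arrest and 0 lower. Over all 11795 genes 16.4% were higher and 8.87% lower, so the share of members called higher was near that of all genes. The members' median log2 fold change was 0.59, against 0.45 over all genes. The 10 were 7 of 18 H2A genes, 1 of 5 H1, 1 of 9 H3 and 1 of 10 H4 genes tested, and none of 12 H2B genes. The 7 include Hist1h2ao and Hist1h2ap, which cannot be read as separate genes. With a median of 87.9% of coding windows shared in H2A, the 7 may share reads and are not separate observations. Their log2 fold changes ran between 2.04 and 4.67, with adjusted p of 0.00358 to 0.0414, and all 3 KO arrest libraries lay above both control embryo libraries in each. The H3 gene among the 10, Hist1h3g, was kept by the filter through KO arrest alone.

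Hist1h4d stood out by its size. It had 284, 509 and 545 FPKM in KO arrest, 7.58, 8.19 and 32.6 FPKM in KO embryo, and 2.58 and 78.9 FPKM in control embryo. Its log2 fold change in KO arrest was 4.67 ± 1.08 (SE) against control embryo (adjusted p = 0.0106) and 4.96 ± 0.96 (SE) against KO embryo (adjusted p = 0.0142). The summed H4 class was 405, 558 and 578 FPKM in KO arrest, 34.9, 43.9 and 59.1 FPKM in KO embryo, and 72.8 and 305 FPKM in control embryo. Hist1h4d made up 70.2%, 91.3% and 94.2% of that sum in KO arrest, 21.7%, 18.6% and 55.2% in KO embryo, and 3.54% and 25.8% in control embryo. Hist1h4c, the leading H4 gene of the control embryos, had 48.3, 18.4 and 16.4 FPKM in KO arrest, 9.40, 29.7 and 18.7 FPKM in KO embryo, and 34.6 and 197 FPKM in control embryo. Its groups overlapped between KO arrest and control embryo, where it was the member with the largest negative fold change (-1.72 ± 0.77, SE, adjusted p = 0.131).

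Hist1h2ap, the highest H2A row, had 1023, 1261 and 1508 FPKM in KO arrest, 839, 446 and 626 FPKM in KO embryo, and 76.6 and 469 FPKM in control embryo (2.71 ± 0.63, SE, adjusted p = 0.0109 against control embryo). Hist1h2ae had 19.6, 44.4 and 60.9 FPKM in KO arrest, 10.8, 2.37 and 2.86 FPKM in KO embryo, and 0.521 and 2.57 FPKM in control embryo (4.05 ± 0.75, SE, adjusted p = 0.00394 against control embryo). It was also higher than in KO embryo (2.85 ± 0.68, SE, adjusted p = 0.0282). The KO arrest libraries lay above all 5 other embryo libraries in both genes. Its partner across the shared promoter, Hist1h2bg, had 3.92, 1.25 and 0.308 FPKM in KO arrest, 0.361, 2.89 and 0.597 FPKM in KO embryo, and 0.0242 and 2.13 FPKM in control embryo, all overlapping. The other H2A genes called against control embryo were Hist1h2ad, Hist1h2ag, Hist1h2ai, Hist1h2an and Hist1h2ao, with log2 fold changes of 2.04 to 2.95.

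The H3 gene Hist1h3g had 8.78, 7.44 and 16.5 FPKM in KO arrest, 0.261, 0.555 and 0.647 FPKM in KO embryo, and 0.244 and 0.0930 FPKM in control embryo. It passed against control embryo (3.28 ± 0.60, SE, adjusted p = 0.00358) and against KO embryo (2.94 ± 0.54, SE, adjusted p = 0.0112). No library of the other embryo groups reached 1 FPKM. The filter thus kept this gene through KO arrest alone, which favoured a higher level there. Hist1h3b, a higher H3 gene by its mean over the 12 libraries, had 2.44, 2.44 and 2.57 FPKM in KO arrest, 0, 0.992 and 1.59 FPKM in KO embryo, and 4.48 and 4.96 FPKM in control embryo, and did not pass in either comparison. The linker histone gene Hist1h1c had 2.99, 4.998 and 10.7 FPKM in KO arrest, 4.47, 0.803 and 3.79 FPKM in KO embryo, and 0.0955 and 0.514 FPKM in control embryo. It passed against control embryo (2.34 ± 0.73, SE, adjusted p = 0.0395). Against KO embryo the libraries overlapped and it did not pass (adjusted p = 0.452). Hist1h1b, another linker histone gene, had 28.6, 40.05 and 57.3 FPKM in KO arrest, 5.36, 3.21 and 5.74 FPKM in KO embryo, and 1.10 and 22.6 FPKM in control embryo. It passed against KO embryo alone (2.87 ± 0.78, SE, adjusted p = 0.0456).

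**Figure D4:**
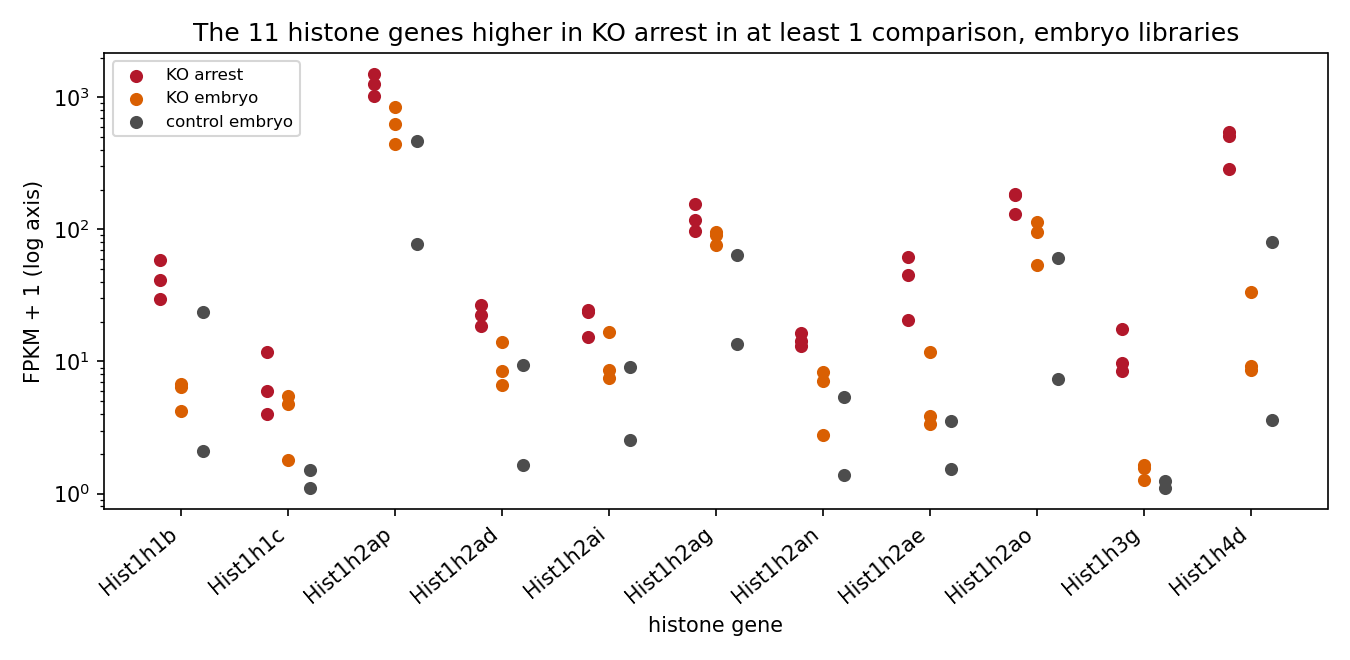
FPKM + 1 (log axis) in each embryo library of the 11 histone genes with an adjusted p under 0.05 and a higher level in KO arrest, against control embryo, KO embryo or both. Hist1h4d has 284 to 545 FPKM in KO arrest and at most 78.9 FPKM in the other libraries.

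Against KO embryo, 4 of the 54 members (7.41%) were higher in KO arrest and 0 lower, against 4.93% of all genes higher and 3.65% lower. The 4 were Hist1h1b, Hist1h2ae, Hist1h3g and Hist1h4d, of which Hist1h3g was kept by the filter through KO arrest alone. The median fold change of the members was 0.95, against 0.071 over all genes, and 47 of the 54 had a positive fold change. Over the groups' means the class sums in KO arrest were 5.97 times those in KO embryo for H1, 1.92 for H2A, 2.13 for H2B, 4.42 for H3 and 11.2 for H4. In FPKM the 3 KO arrest libraries lay above the 3 KO embryo libraries in all 5 classes. In TPM, the other scaling in the files, H2A and H2B overlapped. The H2A sum was 2920 TPM in KO arrest 1 and 3067 TPM in KO embryo 1. The H2B sum was 64.1 TPM in KO arrest 2 and 70.2 to 84.7 TPM in KO embryo. Hist1h4d made up 70.2% to 94.2% of the H4 sum in KO arrest, in FPKM. The smallest fold change was that of Hist1h2bl, with 0, 0.400 and 0 FPKM in KO arrest and 1.80, 1.13 and 3.22 FPKM in KO embryo (-1.39 ± 0.47, SE, adjusted p = 0.0941).

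Both comparisons of KO arrest share its 3 libraries, and control embryo 1 weighed on the comparison with control embryo. Without control embryo 1, 4 members were higher and 2 lower in KO arrest. Without control embryo 2, 18 were higher and 1 lower. Against control embryo the ratio of the class sums was 3.82 for H2A and 2.72 for H4, with no overlap of libraries. Against control embryo 2 alone the ratio was 2.15 for H2A and 1.68 for H4, and against control embryo 1 alone it was 17.0 for H2A and 7.06 for H4. H1, H2B and H3 overlapped, and the H3 ratio of 1.24 fell below 1 with TPM or median-of-ratios scaling, with control embryo 1 left out, and with KO arrest 3 left out. Cell type markers moved with KO arrest. Summed oocyte and early embryo markers were 964 to 1637 FPKM in KO arrest, 12469 to 18405 FPKM in KO embryo, and 38732 and 54064 FPKM in control embryo. The summed markers of blood were 0 in KO arrest, with all 5 genes at 0, 199.5 to 300.1 FPKM in KO embryo, and 57.3 and 109 FPKM in control embryo. Those of fibroblasts were 0.298 to 3.28 FPKM in KO arrest, with 5 of 8 genes at 0 in all 3 libraries, 64.3 to 101 FPKM in KO embryo, and 18.4 and 71.5 FPKM in control embryo. Those of pluripotent cells were 65.0 to 152 FPKM in KO arrest, 20.8 to 36.4 FPKM in KO embryo, and 51.1 and 56.7 FPKM in control embryo. Of these 7 genes 2 were higher and 2 lower in KO arrest than in control embryo, and 2 higher and 0 lower than in KO embryo. RNAs without a poly(A) tail were not level in KO arrest either. By limma Rpph1 was higher than in control embryo (3.36 ± 0.89, SE, adjusted p = 0.0196) but did not pass against KO embryo (adjusted p = 0.262). Rmrp was lower than in control embryo (-2.65 ± 0.71, SE, adjusted p = 0.0213) and in KO embryo (-4.11 ± 0.64, SE, adjusted p = 0.00588). Rprl3 passed against neither. The part of these RNAs and markers in the histone values of the embryos was not tested.

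Some genes of the related lists also passed in KO arrest. Of 21 histone chaperone genes found, 5 were higher than in control embryo and 0 lower, against the 16.4% and 8.87% of all genes. Against KO embryo 2 were higher and 0 lower, against 4.93% and 3.65% of all genes. The list's median log2 fold change there was negative, at -0.41. Npm1, a nucleolar histone chaperone, had 1376, 2782 and 2375 FPKM in KO arrest, 481, 282 and 530 FPKM in KO embryo, and 79.7 and 191 FPKM in control embryo. Hat1, which acetylates new H4, had 79.2, 53.5 and 77.4 FPKM in KO arrest, 25.9, 23.3 and 26.5 FPKM in KO embryo, and 10.3 and 12.5 FPKM in control embryo. Of 12 replication-independent histone genes 5 were higher than in control embryo and 0 lower. H3f3a, an H3.3 gene, had 684, 806 and 1168 FPKM in KO arrest and 141 and 107 FPKM in control embryo. Of 25 S phase genes 6 were higher and 1, E2f1, lower than in control embryo, and 2 higher and 1 lower than in KO embryo, where their median log2 fold change was -0.29. Tk1, the S phase thymidine kinase, had 45.9, 60.6 and 80.6 FPKM in KO arrest, 5.94, 20.9 and 11.2 FPKM in KO embryo, and 0.909 and 6.53 FPKM in control embryo.

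KO embryo and control embryo were not separated at the adjusted threshold for any member. Of 54 members 0 passed by limma, and 6.36% of all genes passed (4.86% higher and 1.5% lower in KO embryo). The summed H2B, H3 and H4 classes were each lower in all 3 KO embryo libraries than in both control embryo libraries, with ratios of the group means of 0.401, 0.280 and 0.243. Set against control embryo 2 alone the same ratios came to 0.262, 0.177 and 0.151, and against control embryo 1 alone to 0.854, 0.671 and 0.632. H3, for example, summed to 11.5, 6.21 and 10.8 FPKM in KO embryo and 14.1 and 53.6 FPKM in control embryo. H1 and H2A overlapped. The H2A sum was 1212, 630 and 901 FPKM in KO embryo and 104 and 817 FPKM in control embryo.

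Among single members the smallest unadjusted p was that of Hist1h1a, a linker histone gene, with 3.52, 15.5 and 1.01 FPKM in KO embryo and 15.7 and 87.7 FPKM in control embryo (-2.86 ± 0.92, SE, adjusted p = 0.0934). The widest positive fold change was that of Hist2h2ac, an H2A gene, with 47.1, 11.8 and 28.2 FPKM in KO embryo and 0.434 and 20.1 FPKM in control embryo (2.25 ± 0.98, SE, adjusted p = 0.205). In both genes the control embryo libraries lay far from each other. Without control embryo 1, 3 members were lower in KO embryo, and without control embryo 2, 7 were higher and 1 lower. Of the related lists, 6 of 25 S phase genes were higher in KO embryo and 0 lower, against 4.86% and 1.5% of all genes. Among the 6 were Gins1 and Mcm3, which act in replication origin firing and licensing.

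Knock-down ES cells held less histone mRNA than control ES cells in all classes but H2A. Of the 67 members 15 were lower in KD ESC and 2 higher, against 3.64% and 2.59% of 12264 genes tested by limma over the 4 ES libraries. The median fold change of the members was -0.45, against -0.086 over all genes. Lower were 1 of 6 H1, 0 of 18 H2A, 6 of 18 H2B, 3 of 12 H3 and 5 of 13 H4 genes, and both higher genes were H2A. The differences were small: the ratio of the group means of the class sums was 0.862 for H1, 1.04 for H2A, 0.681 for H2B, 0.689 for H3 and 0.7999 for H4. H2A alone overlapped, with 8986 and 9674 FPKM in KD ESC and 8896 and 9061 FPKM in control ESC.

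The difference in H3 was even across its genes, which may share reads and are not separate observations. A median of 84.7% of their 50-base coding windows was also found in another gene. All 12 H3 genes had both KD ESC libraries below both control ESC libraries, with log2 fold changes of -0.68 to -0.34, as did 11 of 13 H4 genes, 12 of 18 H2B genes, 5 of 6 H1 genes and 5 of 18 H2A genes, against 37.1% of all genes. Summed, H3 had 6276 and 7264 FPKM in KD ESC and 9753 and 9892 FPKM in control ESC. Hist1h3g had 639 and 654 FPKM in KD ESC and 965 and 1011 FPKM in control ESC (-0.61 ± 0.058, SE, adjusted p = 0.0287). Hist1h3h had 686 and 767 FPKM in KD ESC and 1072 and 1045 FPKM in control ESC (-0.54 ± 0.076, SE, adjusted p = 0.0405). Hist1h3e, the highest H3 gene, had 1057 and 1275 FPKM in KD ESC and 1654 and 1641 FPKM in control ESC but did not pass (-0.50 ± 0.10, SE, adjusted p = 0.0648).

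Among H4 genes Hist4h4, the member on chromosome 6 that shares no 50-base window with another gene, fell the most of all members, with 22.7 and 39.5 FPKM in KD ESC and 98.4 and 98.4 FPKM in control ESC (-1.68 ± 0.27, SE, adjusted p = 0.0479). Hist1h4h had 535 and 589 FPKM in KD ESC and 1104 and 1046 FPKM in control ESC (-0.94 ± 0.075, SE, adjusted p = 0.0253). Hist1h4c had 487 and 462 FPKM in KD ESC and 847 and 787 FPKM in control ESC (-0.78 ± 0.069, SE, adjusted p = 0.0275). The highest H4 genes were split: Hist1h4d lay lower in both KD ESC libraries and Hist1h4a higher in both, and neither passed (adjusted p = 0.0824 and 0.131).

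Among H2B genes Hist1h2bf had 174 and 205 FPKM in KD ESC and 363 and 379 FPKM in control ESC (-0.97 ± 0.10, SE, adjusted p = 0.0312). Hist1h2bk, one of the highest H2B genes, had 696 and 807 FPKM in KD ESC and 1129 and 1099 FPKM in control ESC (-0.57 ± 0.090, SE, adjusted p = 0.0453). The other 4, Hist1h2bg, Hist1h2bh, Hist1h2bl and Hist1h2bn, had fold changes of -0.87 to -0.66. None of their H2A partners across a shared promoter passed as lower. Hist1h2ae, the partner of Hist1h2bg, had 197 and 237 FPKM in KD ESC and 290 and 267 FPKM in control ESC. Hist1h2ad, the partner of Hist1h2bf, had 675 and 805 FPKM in KD ESC and 740 and 789 FPKM in control ESC, and Hist1h2ai, the partner of Hist1h2bl, had 558 and 656 FPKM in KD ESC and 607 and 623 FPKM in control ESC. The groups overlapped for both of these. Hist1h2ak, the partner of Hist1h2bn, was higher, with 1399 and 1407 FPKM in KD ESC and 1092 and 1130 FPKM in control ESC (0.34 ± 0.053, SE, adjusted p = 0.0455).

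The other H2A row that rose was Hist1h2ap, with 806 and 950 FPKM in KD ESC and 588 and 588 FPKM in control ESC (0.57 ± 0.096, SE, adjusted p = 0.0491). The row that encloses it, Hist1h2ao, had 27.3 and 18.3 FPKM in KD ESC and 25.5 and 12.9 FPKM in control ESC, and overlapped. In H1 the gene called was Hist1h1b, with 727 and 734 FPKM in KD ESC and 947 and 960 FPKM in control ESC (-0.38 ± 0.053, SE, adjusted p = 0.0399), while Hist1h1c had 494 and 510 FPKM in KD ESC and 518 and 514 FPKM in control ESC (adjusted p = 0.680).

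**Figure D5:**
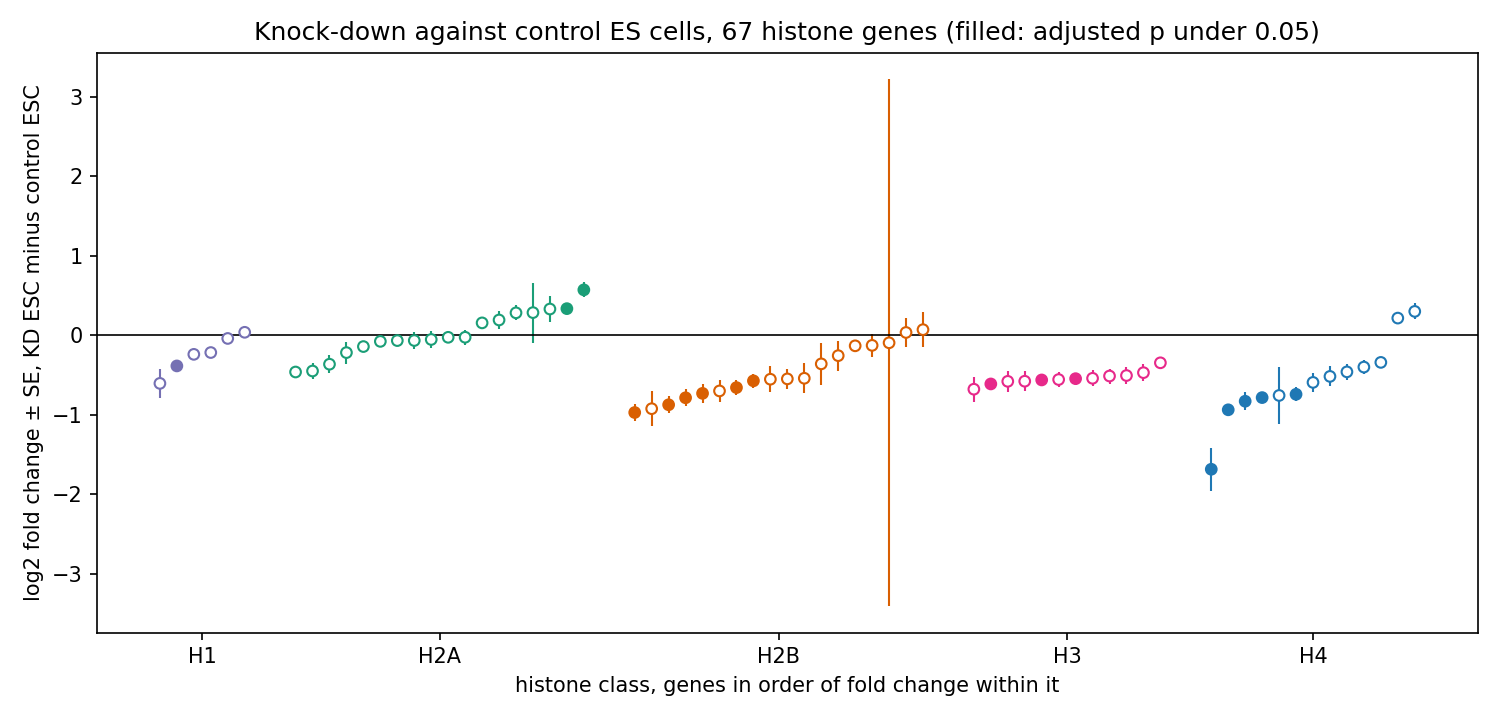
The log2 fold change of each of the 67 histone genes in KD ESC minus control ESC with its SE, in order within each class, with filled points for an adjusted p under 0.05. All 12 H3 genes lie below 0, the H2A genes lie on both sides, and the single wide bar is Hist1h2br, which was listed at 0 in 1 library of each group.

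These calls rest on 4 libraries. With either control ESC library left out 0 members passed, and in a fit of all 12 libraries 0 passed. RNAs without a poly(A) tail were not level between the ES groups either: Terc, the telomerase RNA, had 87.8 and 96.7 FPKM in KD ESC and 165 and 136 FPKM in control ESC (adjusted p = 0.0534), and Rmrp had 29756 and 32506 FPKM in KD ESC and 24780 and 25032 FPKM in control ESC (adjusted p = 0.0584). Markers of other cells and of pluripotency differed as well. The summed fibroblast markers, which feeder cells would carry, were 166 to 169 FPKM in KD ESC and 238 to 247 FPKM in control ESC, with 2 of 6 tested genes lower (Col1a2 and Vim) and 0 higher. The summed pluripotency markers were 1974 to 2186 FPKM in KD ESC and 2359 to 2412 FPKM in control ESC, with 2 of 7 genes lower (Klf4 and Pou5f1) and 0 higher. The part of these RNAs and markers in the histone values was not tested.

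Of 25 S phase genes 6 were lower in KD ESC and 0 higher, against 3.64% and 2.59% of all genes, and 19 did not pass. Their median log2 fold change was -0.28, with summed FPKM of 914 and 948 in KD ESC and 1139 and 1169 in control ESC. Mcm2, a subunit of the replicative helicase, had 58.5 and 57.2 FPKM in KD ESC and 104 and 106 FPKM in control ESC (-0.85 ± 0.073, SE, adjusted p = 0.0270). Ccne1, the cyclin that acts at entry into S phase, had 8.43 and 9.90 FPKM in KD ESC and 19.0 and 19.6 FPKM in control ESC (-1.001 ± 0.128, SE, adjusted p = 0.0372). Of 24 genes for histone mRNA processing and transcription 0 passed. Among 12 replication-independent histone genes 1 was higher, H3f3b, an H3.3 gene with 471 and 446 FPKM in KD ESC and 254 and 253 FPKM in control ESC (0.85 ± 0.063, SE). The 3 lower ones were H2afj, H2afx and H2afz. H2afz, the H2A.Z gene, had 77.0 and 93.5 FPKM in KD ESC and 221 and 216 FPKM in control ESC (-1.36 ± 0.11, SE).

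Whether loss of Dcaf11 changed a histone gene differently in embryos and in ES cells was tested in an added fit of all 12 libraries, as the difference between KO embryo minus control embryo and KD ESC minus control ESC. Of 67 members 0 passed by limma, and 2.69% of all genes passed. An unadjusted p under 0.05 was found in 3 members (Hist1h2bl, Hist1h2be and Hist1h2ag). These were 4.48% of the members, below the 18.3% of all genes with such a p. The smallest adjusted p was 0.125, for Hist1h2bl, whose effect was higher in embryos by 1.84 ± 0.58 (SE) on the log2 scale.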

How the data were processed

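Per the file headers the deposited files give FPKM, TPM and coverage per gene for each of 12 libraries. STAR (as version 0.6.0), StringTie, DESeq2 and the build mm9 are named per the submitters' processing notes, and neither the role of each tool nor the annotation is given in the sources used here. The deposited FPKM values of rows with 1 symbol were summed. The deposited TPM values served as another scaling, and the deposited coverage signal divided by FPKM gave relative depth; no read counts are held, so no counting intervals are given. Rows without a name, 227 to 339 per library, were left out.

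limma 3.58.1 in R 4.3.3, with a trend in the variance, was run on log2(FPKM + 1) over genes at 1 FPKM or more in at least 2 libraries of the fit: 8 embryo libraries for the embryo comparisons, 4 ES libraries for the knock-down, and all 12 for embryo against ES. A gene counted as called when its adjusted p, by Benjamini-Hochberg over every gene kept, was under 0.05. Because of the pseudocount of 1, changes of low genes come out too small. The fit was tested on simulated data. Sequences came from GENCODE M21 and RefSeq (GRCm38.p6), matched by symbol; 4 members (Hist1h2ap, Hist1h2br, Hist1h4n and Hist2h2aa1) lie there on the strand opposite to that in the files, so their sequence features may belong to another copy.

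The members, gene lists and markers were chosen with earlier results of these data known. Named are Dcaf11, the 3 highest members of each class, called members (at most 25 per comparison, smallest adjusted p first), the members with the largest and smallest fold change of a comparison, and up to 4 called genes per list. Genes named beyond this rule, such as partners of a pair, were chosen after their values were seen. Other settings were TPM, median-of-ratios and quantile scaling, 0.1 as pseudocount, a minimum of 5 FPKM or none, other sets of libraries, a block for the replicate number, and leaving out each library. Python 3.11.15 with pandas 2.3.3, numpy 2.4.6 and matplotlib 3.10.9 made the tables and plots.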

Additional observations from a re-analysis of the deposited data

How the results depend on the processing

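The contrast of control embryo with control ESC held under every setting tried, with 58 to 65 members called, 1 of them higher when either control embryo library was left out and none otherwise (60 to 65 with single libraries left out). The other counts moved. Members called in KO embryo against control embryo were 0, but 3 with all 12 libraries in the fit, 3 with median-of-ratios scaling and 1 with quantile normalization, all lower, and 0 to 8 with single libraries left out. In KO arrest against control embryo the 10 called became 6 with TPM (5 higher), 16 with all 12 libraries (15 higher), 7 with median-of-ratios scaling (5 higher), 4 without a filter (3 higher), 5 with the fit limited to both groups, and 4 to 19 with single libraries left out. In KO arrest against KO embryo the 4 called became 2 with TPM, 8 with all 12 libraries (6 higher, 75.0%), 1 without a filter, 7 with both groups alone, 2 with a pseudocount of 0.1, and 1 to 7 with single libraries left out. In KD ESC against control ESC the 17 called became 11 with TPM, 0 with all 12 libraries, 5 without a filter, and 0 to 33 with single libraries left out: 0 without control ESC 1 or 2, 19 without KD ESC 1 and 33 without KD ESC 2. A library left alone in its group was assumed to vary like the other groups. The cause of these changes was not tested.

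The replicate numbers do not pair the libraries: deviations of same-numbered libraries correlated between -0.109 and 0.025. With the replicate number as a block, 0, 5, 2, 0 and 61 members were called in KO embryo and KO arrest against control embryo, KO arrest against KO embryo, KD ESC against control ESC and control embryo against control ESC.

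Scaling moved the median of the log2 fold changes of all genes in control embryo against control ESC by -0.19 with TPM, 0.59 with median-of-ratios scaling and 0.93 with quantile normalization. In KO arrest against control embryo it moved by -0.35, -0.42 and -0.38, in KO embryo against control embryo by -0.36 with median-of-ratios scaling and -0.27 with quantile normalization, and in KO arrest against KO embryo by -0.35 with TPM. Of 2866 values of named genes under other settings, 2409 kept their direction and side of the threshold, 378 no longer passed, 34 newly passed and 45 changed sign, all of them of genes that were not called.

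Changes of sign, as log2 fold changes, in KO embryo against control embryo with single libraries left out: Hist1h1b ran from -2.06 to 1.43, Hist1h2ak from -0.090 to 1.06, Hist1h2bk from -3.05 to 1.17, Hist1h3e from -0.59 to 0.11, Hist1h4a from -0.34 to 0.28, Hist1h4d from -2.53 to 1.95, Hist2h2aa2 from -3.41 to 2.02 and Hist2h2bb from -2.23 to 1.62. Hist2h2bb was 0.032 with a pseudocount of 0.1 and 0.016 with the block. In KO arrest against control embryo Hist1h1a ran from -1.32 to 1.09, Hist1h2bk from -1.15 to 3.07, Hist1h3e from -0.54 to 1.39, Hist1h4k from -0.24 to 0.74, Hist2h2aa2 from -1.78 to 3.65 and Hist2h2bb from -1.75 to 2.10. With the block Hist1h1a was 0.061 and Hist1h3e -0.035. With median-of-ratios scaling, quantile normalization and TPM, Hist1h4k was -0.11, -0.29 and -0.042, and Hist2h2bb -0.47, -0.054 and -0.0045. In KO arrest against KO embryo Dcaf11 ran from -0.21 to 1.12, Hist1h3e from -0.30 to 1.63 and Hist2h2bb from -0.30 to 1.49. In control embryo against control ESC Dcaf11 ran from -0.75 to 1.25 and Hist2h2be from -0.26 to 3.05. In KD ESC against control ESC Hist1h1c was 0.042, 0.13 and 0.0063 with median-of-ratios scaling, quantile normalization and TPM, and Hist2h2aa2 0.016 and 0.14 with median-of-ratios scaling and quantile normalization.

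Depth in reads is unknown, so levels near 0 FPKM in embryos, which most members have, cannot be given a counting error. Reads shared between near copies limit every value of a single H2A, H2B, H3 or H4 gene.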

Other observations

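Levels were also set beside the end of the annotated transcript. Over the embryo libraries the median member had 1.80 FPKM where the transcript ends within 100 bases of the loop (22 genes) and 0.861 FPKM where it goes on (22 genes). Over the ES libraries the same medians were 584 and 250 FPKM. The sets were split by the length of the annotated transcript, and FPKM is itself scaled by length, so these medians cannot be compared as mRNA levels. The mix of classes differed too, as all 4 H1 genes with a loop were in the longer set. These are descriptions of genes that share clusters and sequence, and no test was made.

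Egg genes of the histone lists were found in every embryo library. The oocyte linker histone gene H1foo had 24.7, 10.7 and 8.30 FPKM in KO arrest, 51.7, 12.8 and 26.6 FPKM in KO embryo, and 20.3 and 103 FPKM in control embryo, and was listed at 0 in all 4 ES libraries. Npm2, the histone chaperone of the egg, had 4.05, 5.63 and 6.79 FPKM in KO arrest, 19.3, 6.26 and 27.96 FPKM in KO embryo, and 11.8 and 48.2 FPKM in control embryo, and was also listed at 0 in ES cells.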
